A study of Homo sapiens with 6 samples.

Results

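The PAF1 complex is a transcription elongation complex that travels with RNA polymerase II, and its RNA was followed here through the 6 genes of its human subunits, PAF1, CTR9, LEO1, CDC73, RTF1 and WDR61. The subunits were taken by gene symbol from a table of 35474 listed genes, and earlier results of these data were known when they were chosen. All 6 passed the filter on low counts that left 20776 genes for testing. The study concerned BAP18, a small chromatin factor that reads methylated histone H3 and is encoded by C17orf49, in non-small cell lung cancer. A549 cells, a line established from a human lung adenocarcinoma, received either a siRNA against BAP18 (siBAP18, 3 libraries) or an untargeted siRNA (siCtrl, 3 libraries) and were harvested 48 h after transfection. Poly(A) RNA was sequenced in paired reads of 150 bases. The study's methods describe several BAP18 siRNAs and do not say which was used for the RNA, so all differences belong to a single transfection design in a single cell line. The replicates are called biological, and the p-values measure the spread between these libraries.

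In cells, PAF1 and CTR9 form the core of the complex, with CTR9 acting as the scaffold, and LEO1 binds PAF1 in a tight pair. CDC73 (parafibromin) is a tumor suppressor that also contacts β-catenin, RTF1 promotes ubiquitination of histone H2B and binds less firmly in humans than in yeast, and WDR61 is a propeller protein shared with the SKI complex of cytoplasmic RNA decay. The complex aids release of paused polymerase, elongation through chromatin and placement of histone marks over transcribed genes, and because its subunits depend on each other for stability, protein amounts need not follow RNA.

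Total counts ranged from 46035635 to 53657450 in siCtrl and from 42094524 to 56548620 in siBAP18. Mitochondrial genes took 6.86% to 7.43% of the counts in siCtrl and 5.27% to 6.14% in siBAP18, and the same 4 subunits were called when these genes were left out. The target C17orf49 had 743, 751 and 705 counts in siCtrl and 120, 137 and 108 counts in siBAP18, a log2 fold change of −2.65 (SE 0.11, adjusted p = 7.31e-16). All 8 epithelial markers fixed for A549 were detected, with KRT8 the most abundant. Their summed level was 24707 to 26541 CPM (counts scaled to a common library total) in siCtrl and 18726 to 23001 CPM in siBAP18. Of these 8 markers, 6 were called lower in siBAP18, 1 was called higher and 1 was not called. That is 87.5% called, beside 49.6% of all genes tested. Their median log2 fold change was −0.39, and 1 passed an absolute log2 fold change of 1. Of the markers of other cell types, LYZ, KDR, VWF, COL1A2, PDGFRB and LUM had at most 16 counts in any library, and PTPRC, CD3E and DCN were not analysed here. The 4 endothelial markers summed to 0.984 to 1.15 CPM in siCtrl and 0.890 to 1.13 CPM in siBAP18, which overlap. The sums combine opposite changes: of the 2 markers with enough counts to be tested, 1 was called higher and 1 lower in siBAP18. Both passed an absolute log2 fold change of 1. The 5 fibroblast markers of the table summed to 12.3 to 13.3 CPM in siCtrl and 9.25 to 10.6 CPM in siBAP18, nearly all COL1A1. The 4 leukocyte markers of the table summed to 63.9 to 69.8 CPM in siCtrl and 116 to 160 CPM in siBAP18, nearly all of it CD68, a lysosomal gene that A549 cells also express, which rose by 1.04 on the log2 scale (SE 0.09, adjusted p = 2.63e-10). The part of these marker differences in the results was not tested. In bulk RNA such as this, fewer cells with a transcript and less of it per cell cannot be told apart.

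The sequences upstream of the start sites of PAF1, LEO1 and CTR9 are shown because these are the subunits whose RNA changed most firmly. They are the RefSeq sequences of build GRCh38.p14, each the 250 bases before the start site, printed 5′ to 3′ in the direction of the gene. PAF1 lies on the minus strand at chr19:39391107-39391356, LEO1 on the minus strand at chr15:51971779-51972028 and CTR9 on the plus strand at chr11:10750996-10751245. Capitals mark matches, on either strand, to GGGCGG (the GC box), CCAAT (the box named by its letters), CCGGAAG (the ETS core) or TGACGT (the core of the cAMP response element).
PAF1: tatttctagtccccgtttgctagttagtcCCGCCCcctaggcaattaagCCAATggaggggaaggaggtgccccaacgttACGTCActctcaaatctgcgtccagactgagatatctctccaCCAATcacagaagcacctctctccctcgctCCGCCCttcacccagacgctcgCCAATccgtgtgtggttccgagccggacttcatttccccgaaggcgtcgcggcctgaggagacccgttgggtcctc
LEO1: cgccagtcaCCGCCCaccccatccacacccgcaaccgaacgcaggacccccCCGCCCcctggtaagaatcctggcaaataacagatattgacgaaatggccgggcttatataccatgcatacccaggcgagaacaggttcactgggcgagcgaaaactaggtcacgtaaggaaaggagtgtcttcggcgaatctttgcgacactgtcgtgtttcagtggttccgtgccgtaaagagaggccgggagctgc
CTR9: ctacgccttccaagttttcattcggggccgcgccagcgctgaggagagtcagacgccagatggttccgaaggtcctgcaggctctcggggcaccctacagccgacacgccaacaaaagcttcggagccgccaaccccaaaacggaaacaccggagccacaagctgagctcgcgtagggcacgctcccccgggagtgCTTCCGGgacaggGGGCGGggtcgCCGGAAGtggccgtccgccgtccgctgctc
PAF1 held 2 GC boxes, 3 CCAAT boxes and 1 cAMP response element core, LEO1 held 2 GC boxes, and CTR9 held 1 GC box flanked by 2 ETS cores. Of 35116 promoters of 300 bases (250 before and 50 after the start), 45.0% held a GC box, 34.6% a CCAAT box, 10.3% an ETS core and 7.98% the TGACGT core. CACGTG (E-box, 7.26% of promoters), GCGCATGC (NRF1 core, 3.05%) and TGANTCA (AP-1, 7.71%) were searched in the same way and were found in none of these 3 windows. In the windows of 300 bases, RTF1 held 4 GC boxes and a palindromic pair of overlapping NRF1 cores. The NRF1 cores, at positions 18 and 20, and 1 GC box, at position 4, lie past the RTF1 start site. WDR61, named SKIC8 in RefSeq, held 3 GC boxes and 3 ETS cores of which 2 overlap, all before the start site. These matches describe letters and not binding. Within the printed PAF1 sequence, 229 bases also belong to the upstream window of MED29, a Mediator subunit gene transcribed in the opposite direction, and 271 bases separate the RefSeq start sites of the pair.

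Knockdown of BAP18 was followed by unlike changes among the subunits. PAF1 RNA rose, LEO1 and CTR9 RNA fell, WDR61 fell by a small amount, and neither CDC73 nor RTF1 passed the test. Thus 4 of the 6 subunits were called at an adjusted p under 0.05 in the quasi-likelihood test of edgeR, with p adjusted by Benjamini and Hochberg's method over all genes, against 49.6% of all genes tested. In siBAP18, 1 subunit was higher, where 24.5% of all genes were, and 3 were lower, where 25.1% of all genes were. None of the 6 passed an absolute log2 fold change of 1 as well, which 8.46% of all genes did. The CPM values of the groups did not overlap for 4 of the 6, against 56.6% of all genes. The median log2 fold change was −0.12 over the subunits and 0.0010 over all genes. With 6 genes these counts only describe the subunits, which moved in different directions.

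PAF1, the subunit that names the complex, is encoded at chr19:39385852-39391195 on the minus strand. Its level was 489, 467 and 518 CPM in siCtrl replicates 1 to 3, and 748, 681 and 831 CPM in the siBAP18 replicates. Every siBAP18 library was above every siCtrl library. PAF1 rose by 0.62 on the log2 scale (SE 0.07, adjusted p = 1.53e-07), or 1.53-fold with a 95% interval of 1.38 to 1.71. The third siBAP18 library was the highest and the second the lowest, and the SD within siBAP18 was 75.4 CPM against 25.4 CPM in siCtrl. These values are RNA only. By Western blot in A549 cells given BAP18 siRNA, the study reported PAF1 protein as largely unchanged.

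LEO1, the partner that binds PAF1 directly, moved the other way. The gene lies at chr15:51938025-51971806 on the minus strand. Its level was 178, 170 and 190 CPM in siCtrl and 116, 115 and 113 CPM in siBAP18. The siBAP18 values were nearly alike (SD 1.37 CPM) and all lay below the siCtrl values (SD 10.1 CPM). LEO1 fell by 0.64 on the log2 scale (SE 0.07, adjusted p = 1.27e-08), or to 0.642-fold of the control with a 95% interval of 0.584 to 0.705.

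CTR9, the scaffold of the complex, lies at chr11:10750987-10779743 on the plus strand. It measured 96.5, 96.4 and 97.6 CPM in siCtrl and 75.1, 84.0 and 73.9 CPM in siBAP18. The siCtrl libraries hardly differed, and all siBAP18 libraries were below them, with the second closest. CTR9 fell by 0.32 on the log2 scale (SE 0.07, adjusted p = 3.70e-04), with a 95% interval of 0.729-fold to 0.885-fold of the control.

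WDR61 lies at chr15:78277835-78299794 on the minus strand and gave the fewest counts of the subunits, down to 820 in a library, where counting alone gives an error of 3.49%. Its level was 24.1, 24.8 and 25.5 CPM in siCtrl and 22.8, 22.0 and 20.2 CPM in siBAP18. The groups did not overlap, but the nearest libraries were close to each other. The log2 fold change was −0.19 (SE 0.07, adjusted p = 0.0349). This call is borderline: it was lost in 9 of 18 alternative analyses, among them those without any single siCtrl library (adjusted p = 0.0599, 0.0879 and 0.131 without siCtrl replicates 1, 2 and 3) and that without siBAP18 replicate 3 (adjusted p = 0.0751).

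CDC73, the tumor suppressor subunit, lies at chr1:193122017-193253901 on the plus strand. It had 55.9, 55.4 and 52.7 CPM in siCtrl and 54.6, 57.5 and 54.6 CPM in siBAP18, so the groups overlapped. The log2 fold change was 0.02 (SE 0.07, adjusted p = 0.790), with a 95% interval of 0.925-fold to 1.12-fold. RTF1, the subunit tied to histone H2B ubiquitination, lies at chr15:41408408-41483563 on the plus strand. It had 59.7, 66.2 and 61.9 CPM in siCtrl and 56.3, 64.2 and 60.9 CPM in siBAP18, again with overlap. Its log2 fold change was −0.05 (SE 0.07, adjusted p = 0.595), with a 95% interval of 0.874-fold to 1.07-fold.

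**Figure D1:**
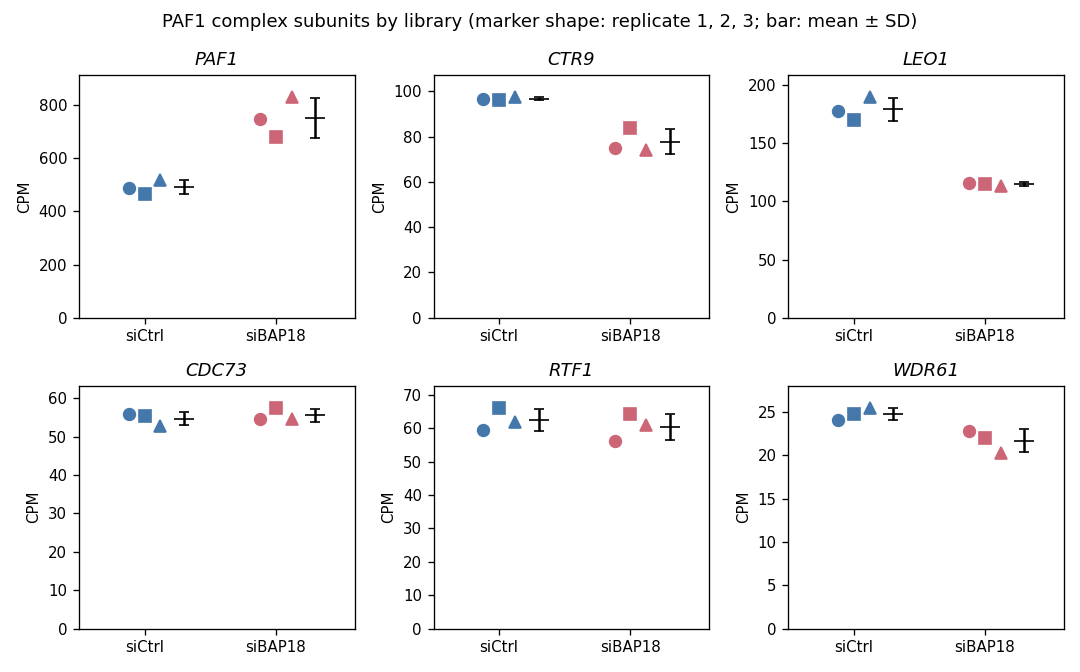
CPM of the 6 subunits in each library, 1 panel per gene with its own axis from 0; circles, squares and triangles are replicates 1, 2 and 3, and the black bar is the mean with its SD over 3 libraries. PAF1 is higher in all siBAP18 libraries, LEO1, CTR9 and WDR61 are lower, and CDC73 and RTF1 overlap.

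Levels can be compared between genes only per length, and RPKM (counts per kilobase of gene, scaled to the total of the library) was used for this. In siCtrl, PAF1 stood at 183.7 ± 8.07 RPKM (SD, n = 3), rank 277 of all listed genes. LEO1 followed at 66.8 ± 3.24, CTR9 at 17.4 ± 0.158, RTF1 at 10.8 ± 0.691, CDC73 at 10.2 ± 0.373 and WDR61 at 3.40 ± 0.105 RPKM. RTF1 and CDC73 overlapped, and every other pair of neighbours in this order was separated in all libraries. In siBAP18 the order was the same, with PAF1 at 282.1 ± 18.3, LEO1 at 43.0 ± 1.94, CTR9 at 14.0 ± 1.44, RTF1 at 10.5 ± 0.876, CDC73 at 10.4 ± 0.651 and WDR61 at 2.98 ± 0.267 RPKM. RTF1 and CDC73 again overlapped.

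PAF1 RNA was therefore far more abundant per length than that of any other subunit of the complex in both groups. It made up 62.8% ± 0.516 of the summed RPKM of the 6 subunits in siCtrl and 77.7% ± 2.16 in siBAP18 (SD, n = 3). The share of LEO1 went from 22.8% ± 0.279 to 11.9% ± 0.958. The place of WDR61 rests on the listed gene length of 7279 bases. With the 1387 bases of its principal transcript in GENCODE 29, an alternative chosen after seeing the data, WDR61 reached 17.8 ± 0.551 RPKM in siCtrl and ranked above RTF1 (12.4 ± 0.794) and CDC73 (9.18 ± 0.336). In siBAP18 the same alternative gave 15.7 ± 1.40 RPKM for WDR61, overlapping the values of CTR9. PAF1 and LEO1 kept the first places under both lengths.

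**Figure D2:**
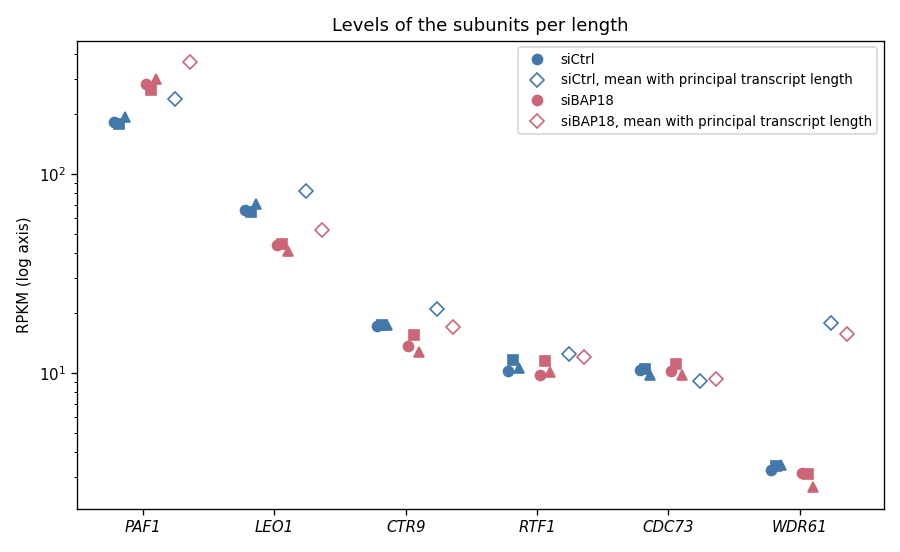
RPKM of the 6 subunits on a log axis, with filled circles, squares and triangles for replicates 1, 2 and 3 by the listed gene length and open diamonds for the group mean by the length of the principal transcript. PAF1 is the highest in both groups (183.7 and 282.1 RPKM), and WDR61 is the gene whose place depends on the length used.

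The balance between subunits was also compared within each library, where the scaling between libraries has no part. The ratio of PAF1 to LEO1, per kilobase, was 2.76, 2.76 and 2.74 in siCtrl and 6.47, 5.92 and 7.35 in siBAP18. The siCtrl ratios were nearly the same and the siBAP18 ratios all lay above them, a log2 change of 1.25. This is the largest shift among the 15 pairs of subunits. The ratio of PAF1 to CTR9 went from 10.6, 10.1 and 11.1 to 20.8, 16.9 and 23.4, a log2 change of 0.93. CTR9 to LEO1, both of which fell, went from 0.261, 0.273 and 0.247 to 0.312, 0.351 and 0.314.

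In 13 of the 15 pairs the ratios of the groups did not overlap. The pairs are built from only 6 genes and share members, so they are not separate results. Among all single genes tested, 56.6% had CPM values that did not overlap, and the share among pairs of other genes was not computed. The exact two-sided permutation test gave p = 0.1 for each of the 13 separated pairs, which is the smallest p that 3 libraries against 3 allow. Their adjusted p over the 15 pairs was 0.115. The exceptions were CDC73 to RTF1, with a log2 change of 0.07 (exact permutation p = 0.3), and RTF1 to WDR61, with a log2 change of 0.15 (exact permutation p = 0.3). CTR9 to WDR61 was separated by the least, with 5.24, 5.09 and 5.01 in siCtrl and 4.31, 5.00 and 4.78 in siBAP18.

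**Figure D3:**
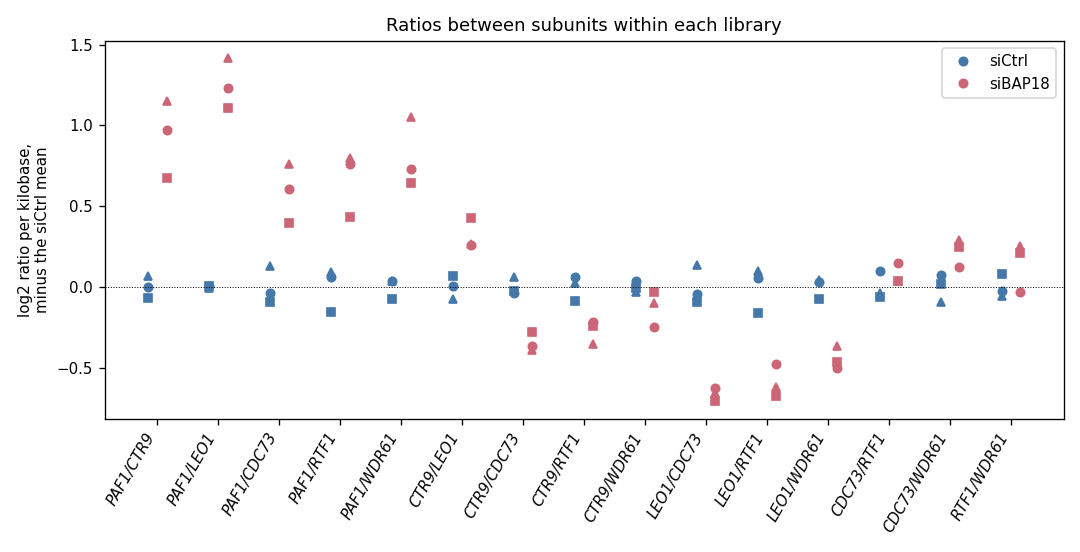
Log2 ratio per kilobase for the 15 pairs of subunits in each library, minus the siCtrl mean of the pair; circles, squares and triangles are replicates 1, 2 and 3. The pairs with PAF1 lie above 0 in all siBAP18 libraries, PAF1/LEO1 by 1.25 on average, while CDC73/RTF1 and RTF1/WDR61 overlap.

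The genes that lie next to the subunits were examined at the same time. MED29, whose start faces that of PAF1, had 87.7, 87.3 and 91.8 CPM in siCtrl and 116, 108 and 112 CPM in siBAP18. All siBAP18 libraries were higher, and MED29 rose by 0.33 on the log2 scale (SE 0.07, adjusted p = 1.31e-04). The listed rows of PAF1 and MED29 are 107 bases apart and share no exon. SAMD4B, 141 bases beyond the other end of PAF1, gave −0.10 on the log2 scale (SE 0.07, adjusted p = 0.253). SUPT5H, the large subunit of the pausing factor DSIF, begins 45.0 kb past the PAF1 row.

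LEO1 overlaps listed spans on the opposite strand at both ends. TMOD3, which encodes a tropomodulin that caps actin filaments, fell from 192, 198 and 204 CPM to 105, 112 and 100 CPM, a log2 fold change of −0.91 (SE 0.07, adjusted p = 3.42e-11). MAPK6, which encodes the kinase ERK3, rose from 62.0, 60.4 and 62.8 CPM to 83.4, 86.2 and 75.1 CPM, a log2 fold change of 0.40 (SE 0.07, adjusted p = 2.55e-05). By the exons of the listed rows, LEO1 shares 4 exon bases with TMOD3 and none with MAPK6. The next gene upstream of LEO1, the noncoding CTD-2650P22.1, rose from 17, 20 and 38 counts to 460, 516 and 252 counts (log2 fold change 3.93, SE 0.21, adjusted p = 9.64e-14), and its row begins 39192 bases from the LEO1 row.

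Neighbours of the other subunits were examined in the same way. NDUFAF1, an assembly factor of respiratory complex I that lies 5888 bases from RTF1, rose by 0.38 on the log2 scale (SE 0.09, adjusted p = 8.47e-04), whereas ITPKA on the other side had −0.50 (SE 0.24, adjusted p = 0.0879). Of the genes overlapping WDR61, DNAJA4 (0.56, adjusted p = 0.189), RP11-762H8.1 (−0.22, adjusted p = 0.119) and RP11-762H8.2 (0.09, adjusted p = 0.727) were not called on the log2 scale. RP11-762H8.1 shares 126 exon bases with WDR61 on the opposite strand, so that reads of the pair can be mixed if the counting ignored strand. ACSBG1 (−0.28, adjusted p = 0.00976) and RP11-5O23.2 (−1.01, adjusted p = 0.00465), the nearest genes outside WDR61, fell. ACSBG1 lost its call in 4 of 18 alternative analyses, among them that without siCtrl replicate 1 (adjusted p = 0.0882), and RP11-5O23.2 lost it in 1 of the 16 that gave a value. GLRX2 next to CDC73 gave 0.25 on the log2 scale (adjusted p = 0.0876), and B3GALT2 inside CDC73, LINC01031, RP11-762H8.4, RP11-762H8.5 and the neighbours of CTR9, MRVI1 and RP11-685M7.5, had too few counts to be tested.

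**Figure D4:**
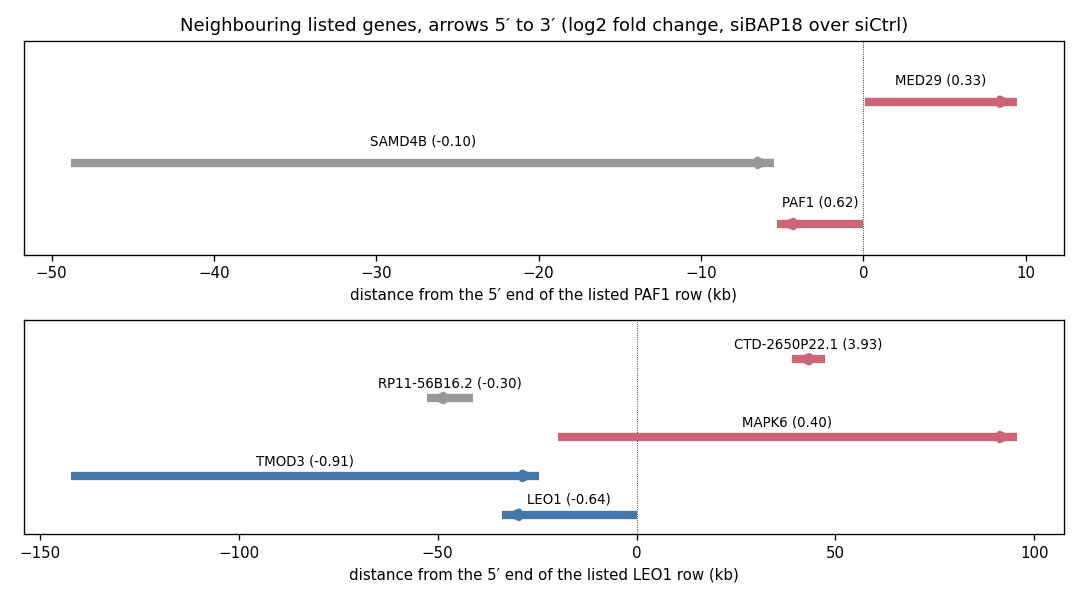
Listed genes around PAF1 and LEO1, drawn to scale by distance in kb from the 5′ end of the subunit's row, with arrows from 5′ to 3′ and the log2 fold change in parentheses; red genes were higher, blue genes lower and gray genes not called. MED29 (0.33) is higher beside PAF1 (0.62), and LEO1 (−0.64) overlaps TMOD3 (−0.91) and MAPK6 (0.40).

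The genes with the most similar profile were found for each subunit as the smallest Euclidean distance between log2 CPM values over the 6 libraries, each centred on its own mean, among 14221 genes. They were WISP2, SURF2 and MYL6 for PAF1, SKAP2, SNX6 and NUCKS1 for CTR9, and MLLT3, TOP2B and PIF1 for LEO1. MLLT3, at a distance of 0.0422 from LEO1, encodes a reader of acylated histones in the super elongation complex. For the remaining subunits they were SDHAP1, RP11-78A19.3 and ZCRB1 for CDC73, RP11-637O19.3, C1QTNF6 and CTD-2047H16.4 for RTF1, and VEGFC, GPBP1 and DYM for WDR61. With 6 libraries many genes share a profile. No subunit was among the 3 nearest genes of another. The closest pair were RTF1 and CDC73, with CDC73 at rank 296 from RTF1 and RTF1 at rank 785 from CDC73, followed by CTR9 and WDR61 at ranks 1166 and 1252. From PAF1 the other subunits ranked between 6216 (CDC73) and 12528 (LEO1).

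The siRNA guides named in the study's methods were compared with the 3′ UTRs of the subunits by the complement of guide bases 2 to 8. AATCACA, the word for siBAP18#1, occurred once each in CTR9 and RTF1 and in 15.5% of 13746 tested genes with an annotated 3′ UTR. AAGATTC, for siBAP18#2, occurred at 2 places in CDC73 and in 12.5% of genes. ACTCAAC, for siBAP18#3 (7.79% of genes), and TGTCACG, for siCtrl (3.37%), occurred in no subunit. PAF1, LEO1 and WDR61 thus held no word of any of these guides, with longest 3′ UTRs of 139, 131 and 299 bases, and which guide was transfected is not given.

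Other genes were taken from 10 lists grouped by function. Beside elongation genes, the lists hold 23 Integrator and termination genes, 2 SKI complex partners of WDR61 and 5 nuclear partners of parafibromin. Of all 88 genes together, 37 rose, 21 fell and 30 did not pass the test, where 24.5% of all genes rose and 25.1% fell. Thus 65.9% of the list genes were called against the 49.6% of all genes. Only 4 also passed an absolute log2 fold change of 1. The median log2 fold change was 0.10 over the lists and 0.0010 over all genes.

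DSIF and NELF hold polymerase in the paused state. Of their 6 genes, 4 rose and none fell, beside 24.5% and 25.1% of all genes, and with so few genes the count is only a description. Their median log2 fold change was 0.32. SUPT5H had 1141, 1192 and 1182 CPM in siCtrl and 1552, 1581 and 1818 CPM in siBAP18, all higher, and rose by 0.49 (SE 0.07, adjusted p = 2.41e-06). NELFB, a subunit of NELF, rose by 0.56 (SE 0.08, adjusted p = 1.49e-06). The genes of the list that were not called, NELFA (0.10) and NELFCD (0.12), were named after their values were seen.

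The kinase P-TEFb releases the pause and is held inactive by the 7SK particle. Of 8 genes of this group, 5 rose and 1 fell, beside 24.5% and 25.1% of all genes. Their median log2 fold change was 0.24, and with so few genes the counts only describe them. The P-TEFb inhibitors HEXIM1 and HEXIM2 rose by 0.55 (SE 0.06, adjusted p = 8.11e-08) and 0.59 (SE 0.08, adjusted p = 1.86e-06). LARP7, which binds and protects 7SK RNA, went from 54.2, 55.8 and 52.0 CPM to 24.3, 24.1 and 24.8 CPM. All siBAP18 libraries were lower, and LARP7 fell by 1.14 (SE 0.07, adjusted p = 7.98e-13).

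The super elongation complex brings P-TEFb to genes and can be reached through the PAF1 complex. Here 4 of 9 genes rose and 2 fell, with a median of 0.19, where 24.5% and 25.1% of all genes did. ELL, an elongation factor that suppresses pausing, had 5.57, 5.07 and 4.90 CPM in siCtrl and 16.2, 14.3 and 14.0 CPM in siBAP18. It rose by 1.52 (SE 0.10, adjusted p = 3.57e-12) with no overlap, and ELL2 rose by 0.27 (SE 0.07, adjusted p = 0.00357). The scaffold AFF1 fell by 0.87 (SE 0.08, adjusted p = 8.50e-10) and MLLT3 fell by 0.63 (SE 0.08, adjusted p = 1.63e-07), close to LEO1. Of the CTD kinases CDK12 and CDK13 and their cyclin, CCNK alone was called, with a rise of 0.30 (SE 0.07, adjusted p = 9.05e-04). Among all genes 49.6% were called, and with so few genes these counts only describe the lists.

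The genes for histone H2B ubiquitination and chromatin marks of elongation were split. Of 9 genes, which include writers, an eraser, an adaptor and a remodeler, 3 rose and 3 fell, with a median of −0.03. Among all genes the shares were 24.5% and 25.1%, so these few counts only describe the list. RNF40, a subunit of the ubiquitin ligase for histone H2B, had 342, 322 and 347 CPM in siCtrl and 525, 492 and 573 CPM in siBAP18 and rose by 0.65 (SE 0.07, adjusted p = 2.26e-08). Its partner RNF20, named after its values were seen, had 228, 227 and 245 CPM in siCtrl and 178, 205 and 172 CPM in siBAP18 and fell by 0.34 (SE 0.07, adjusted p = 3.44e-04). DOT1L, which methylates histone H3 at lysine 79, rose by 0.67 (SE 0.07, adjusted p = 3.72e-08), whereas CHD1, a remodeler of transcribed chromatin, fell by 0.55 (SE 0.07, adjusted p = 2.97e-07) and SETD2, which methylates lysine 36, fell by 0.37 (SE 0.07, adjusted p = 1.24e-04).

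Of 11 histone chaperones and cleavage factors, 6 rose and 3 fell, with a median of 0.19, beside 24.5% and 25.1% of all genes. The Elongin genes TCEB3 (0.64, SE 0.06, adjusted p = 8.49e-09) and TCEB2 (0.45, SE 0.07, adjusted p = 1.39e-05) rose, as did the weakly expressed cleavage factor TCEA3 (1.26, SE 0.21, adjusted p = 1.98e-05). TCEA1, the general form of TFIIS, fell by 0.35 (SE 0.07, adjusted p = 1.75e-04). Of 12 subunits of RNA polymerase II, 6 rose and 4 fell, also with a median of 0.19 and beside the same shares of all genes. With so few genes per list these counts are only a description. POLR2D, a subunit of the stalk, went from 21.1, 22.7 and 19.0 CPM to 44.4, 44.6 and 42.0 CPM, a rise of 1.06 (SE 0.08, adjusted p = 1.83e-11) with no overlap. POLR2C rose by 0.59 (SE 0.08, adjusted p = 1.13e-06). The large catalytic subunits fell, POLR2B by 0.35 (SE 0.07, adjusted p = 1.69e-04) and POLR2A by 0.30 (SE 0.07, adjusted p = 6.00e-04). POLR2G (−0.23, SE 0.07, adjusted p = 0.0103) and POLR2K (−0.29, SE 0.08, adjusted p = 0.00347), named after their values were seen, fell as well.

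At the end of the transcription cycle, 5 of 23 Integrator and termination genes rose and 6 fell, with a median of −0.02, and the 47.8% called was near the share of all genes. The cleavage and polyadenylation genes CPSF1 (0.44, adjusted p = 7.95e-06) and FIP1L1 (0.38, adjusted p = 3.24e-05) rose, and CPSF2 (−0.63, adjusted p = 1.04e-07) and VWA9, an Integrator subunit (−0.54, adjusted p = 8.51e-07), fell. WDR61's partners in the SKI complex went opposite ways: TTC37, the scaffold, had 36.3, 29.7 and 37.9 CPM in siCtrl and 21.0, 19.8 and 20.0 CPM in siBAP18 and fell by 0.77 (SE 0.08, adjusted p = 2.52e-08). SKIV2L, the helicase, rose by 0.22 (SE 0.08, adjusted p = 0.0318), a call that 8 of 18 alternative analyses lost, among them those without any single library other than siBAP18 replicate 2 (adjusted p = 0.0513 to 0.135). Of 5 nuclear partners of parafibromin in Wnt signaling, CTNNB1 fell by 0.40 (SE 0.07, adjusted p = 5.70e-05). BCL9L rose by 0.28 (SE 0.07, adjusted p = 9.27e-04), PYGO1 rose by 0.37 (SE 0.12, adjusted p = 0.0157), and the remaining pair were not called. Among all genes 24.5% rose and 25.1% fell, so these few calls only describe the list. PYGO1 lost its call in 5 of 18 alternative analyses, among them those without siCtrl replicate 3 (adjusted p = 0.0624) and without siBAP18 replicate 2 (adjusted p = 0.106).

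**Figure D5:**
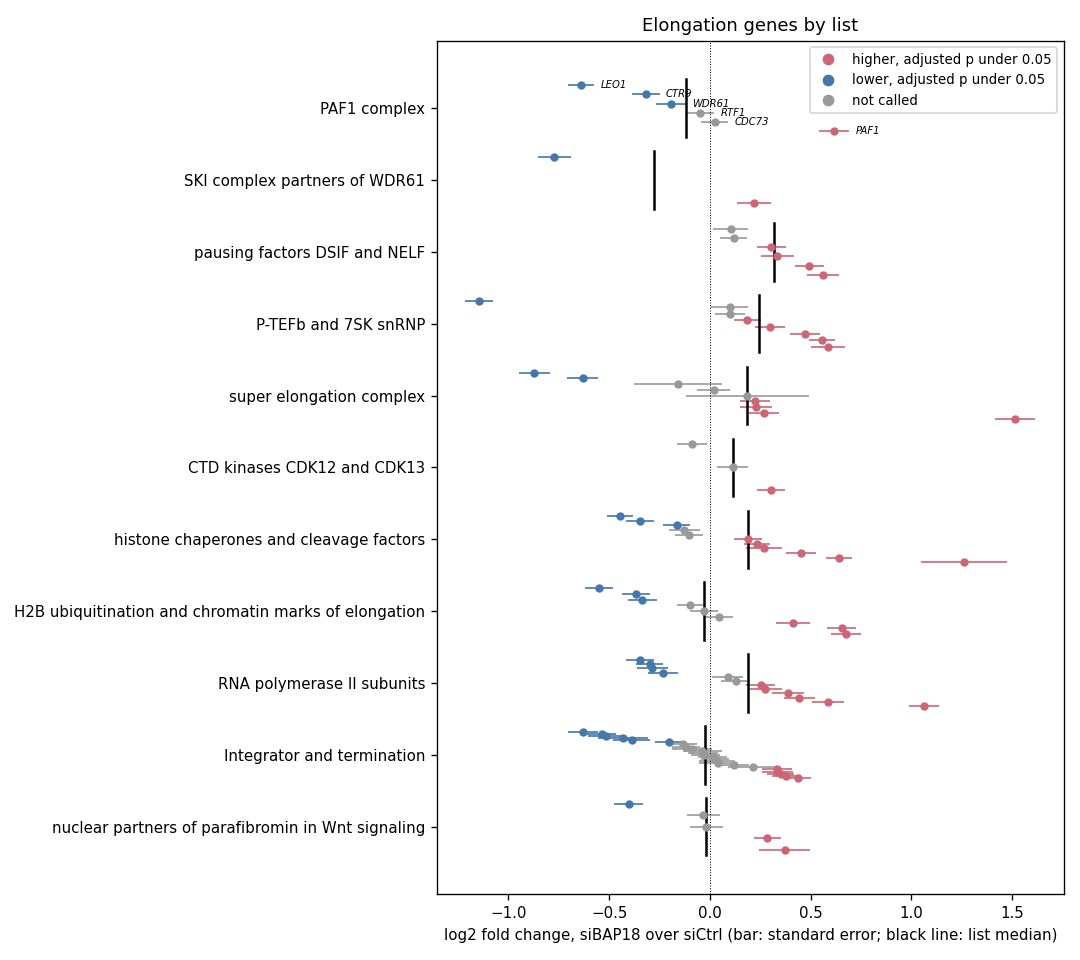
Log2 fold change of siBAP18 over siCtrl for the 6 subunits and the genes of the 10 lists. Bars are standard errors, black lines are list medians, and color marks genes called higher, lower or not called at an adjusted p of 0.05. The subunits spread from −0.64 (LEO1) to 0.62 (PAF1), and no called gene of DSIF or NELF is lower.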

How the data were processed

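RNA of 6 A549 libraries, 3 siCtrl and 3 siBAP18, was analysed from 2 tables. The authors deposited whole-number read counts per gene, and RPKM values that equal the deposited count per kilobase of listed gene length scaled to the column total. The submitters' processing notes name the builds hg38 and GRCm38. Coordinates are those of the human build in the count table. Aligner, counting program and use of strand are not given in the sources used here, although the protocol describes strand-specific libraries.

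Counts were filtered with filterByExpr, scaled by TMM and compared with edgeR 4.0.16 in R 4.3.3 by the quasi-likelihood test with Benjamini-Hochberg adjustment over 20776 genes, called at an adjusted p of 0.05. Standard errors are the log2 fold change over the square root of F. CPM values are TMM-scaled. Alternatives used limma 3.58.1, DESeq2 1.42.0, other scalings and filters, and each library left out. The steps were tested on simulated data. A count of 0 allows up to 3 counts, and errors of this kind cover counting only. No replicates were duplicates, since chi-square divided by its degrees of freedom was at least 4.17 between any pair of replicates. The subunits and gene lists were chosen with earlier results of these data known. Named were the subunits, C17orf49, genes overlapping or next to a subunit, up to 2 genes per list and direction with the smallest adjusted p, list genes past an absolute log2 fold change of 1, and the 3 nearest profiles per subunit at an average log2 CPM of at least 1. Promoters are RefSeq sequences, found for 5 of the 6 subunits. Rows that span several chromosomes or at least 5 Mb were not used as neighbours. Some genes that this rule names are not reported here.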

Additional observations from a re-analysis of the deposited data

How the results depend on the processing

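PAF1, LEO1 and CTR9 kept their direction and call in all 18 alternatives, with log2 fold changes of 0.54 to 0.69, −0.68 to −0.60 and −0.38 to −0.28. CDC73 and RTF1 were called in none, and leaving out a library moved them between −0.0042 and 0.039 and between −0.095 and 0.00073. WDR61 lost its call with total-count scaling (−0.19, adjusted p = 0.0664), in DESeq2 (−0.18, adjusted p = 0.0525) and in limma on log2(RPKM + 1) with a filter (−0.14, adjusted p = 0.106) or without (−0.14, adjusted p = 0.175) and on log2(RPKM + 0.1) (−0.19, adjusted p = 0.104). Without single libraries it ranged from −0.23 to −0.14, and it was called in 2 of 6 such fits. Genes called with a fold filter numbered 1758, against 348, 909 and 345 in the limma analyses filtered at + 1, filtered at + 0.1 and unfiltered. Against the main fit, the limma analyses change the test, the scaling, the filter and the use of a pseudocount together, and the cause of that difference was not tested. Among the limma analyses, 348 and 909 differ only in the pseudocount, and 348 and 345 differ only in the filter. Of 63 other named genes, 47 kept direction and call in all 18 alternatives, and TCEA3, RP11-56B16.2 and DNAJA4 did so in the 16 that gave a value. PYGO1, SKIV2L, ITPKA, RP11-762H8.1, ACSBG1, RP11-5O23.2, VEGFC and GPBP1 changed their side of the threshold in at least 1 alternative. None of the 5 that turned direction was called: without single libraries RP11-762H8.2 ranged from −0.033 to 0.23, SDHAP1 from −0.012 to 0.046, RP11-78A19.3 from −0.0097 to 0.035 (−0.0012 without a filter), ZCRB1 from −0.035 to 0.0097 and RP11-637O19.3 from −0.10 to 0.0075. Residuals of libraries with the same replicate number were nearly uncorrelated across genes (r −0.017, 0.051 and 0.0038). With 3 libraries per group this cannot exclude a pairing. A replicate block left the same 4 subunits called and gave 10803 called genes instead of 10305. Among the subunits WDR61 had the fewest counts and the largest counting error (3.49%), but its SE (0.0744) was close to that of PAF1 (0.0742). The part of depth in its borderline call was not tested.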
